A study of Mus musculus with 12 samples.

Results

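The 31 genes described here are Trp53, which encodes the transcription factor p53, and genes known as its targets. They were chosen by symbol from a fixed list, and all 31 were found among the 52550 gene IDs of the count table. The list was proposed with results of these libraries in view, and the proposal named control replicate 2 as standing apart in both tissues. The members are therefore treated as selected on the values of control 2, and on the comparison of AKO with control in each tissue, which contains control 2. The differences between genotypes and the values of control 2 are accordingly given as descriptions, with no p-value for any gene, and counts of calls there are read only beside the share of all genes called. The comparison of brown with white fat, which the proposal did not name, was tested. It uses the same libraries, so its tests are not independent of the choice.

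RNA sequencing was done on 12 mouse libraries in 4 groups of 3. The tissues were white fat of the inguinal depot (WAT) and brown fat (BAT). Controls were Mcu fl/fl mice, in which the Mcu gene is floxed but present, and AKO mice were Mcu fl/fl AKO animals, an adipose-specific knockout of Mcu, which forms the channel of the mitochondrial calcium uniporter. Per the series' design text, both genotypes were on a high-fat diet and the aim was to compare their expression profiles in white and brown fat. The sources used here do not give the Cre driver, the age or the sex of the mice. The libraries are labelled as replicates and are not said to come from separate animals, so a p-value measures the spread between these libraries, which may be technical.

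p53 is held at a low level in unstressed cells by Mdm2, a ubiquitin ligase that marks it for degradation and whose own gene p53 activates. DNA damage, nucleolar stress, oncogene activity and metabolic stress stabilise p53, which then binds a repeated decamer near its target genes. The targets stop the cell cycle, start apoptosis through mitochondria or death receptors, repair DNA, and adjust metabolism and autophagy. In adipose tissue the pathway has been linked to obesity, adipocyte senescence and insulin resistance.

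Total counts ran from 15692588 to 18967159 per library. Levels are given as CPM, counts scaled to library size after TMM normalisation over the 12 libraries, and comparisons between genes use FPKM, which is per length. Mcu measured 18.5 ± 0.455 CPM in WAT controls and 11.2 ± 1.21 CPM in WAT AKO, and 26.5 ± 2.43 CPM in BAT controls and 10.8 ± 3.34 CPM in BAT AKO (SD, n = 3 each). Its counts cover the whole gene, including exons outside the deleted part. Adipocyte markers took 2.8% to 3.4% of counts in WAT and 1.86% to 2.07% in BAT, and brown adipocyte markers 0.601% to 0.743% in BAT and at most 0.00829% in WAT. The 12 markers of T and NK lymphocytes summed to 0.00208% and 0.00304% of counts in WAT controls 1 and 3, 0.0374% in WAT control 2 and 0.0374% to 0.0697% in WAT AKO. In BAT this sum was at most 0.000752%. B lymphocyte markers, also 12 genes, took 0.08% to 0.164% in WAT controls, 0.149% to 0.304% in WAT AKO and at most 0.00748% in BAT; Ms4a1 was at 0 in 1 WAT control. The 13 skeletal muscle markers were highest in WAT AKO 2 (2.4%), followed by BAT AKO 2 (1.82%) and WAT control 1 (1.35%).

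Promoter sequences are shown for 6 members, since many of the genes varied together between libraries and the p53 decamer is the element that the family is named for. RefSeq promoter windows (GRCm38.p6, 250 bases before to 50 after the start) were available for 23 of the 31 members, in 30 windows. The decamer consensus, which reads the same on both strands, was found in 12 of these windows (40%), against 8.36% of 32851 windows of all genes. These 12 windows belonged to 11 members: Cdkn1a, Mdm2, Ccng1, Aen, Sesn1, Bax, Polk, Ei24, Ckap2, Gtse1 and Trp53. A pair of decamers with a spacer of 0 to 13 bases was found in 1 member window, that of Cdkn1a, and in 0.0731% of all windows. In the stretches of 90 bases below, written 5′ to 3′ on the gene's strand, capitals mark each decamer. A match describes these letters and is not a measured binding site.
Cdkn1a (chr17:29090866-29090955, plus strand): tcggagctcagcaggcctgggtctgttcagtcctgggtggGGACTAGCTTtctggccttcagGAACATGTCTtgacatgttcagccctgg
Mdm2 (chr10:117710895-117710984, minus strand): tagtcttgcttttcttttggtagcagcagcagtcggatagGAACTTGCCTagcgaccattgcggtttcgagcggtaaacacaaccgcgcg
Ccng1 (chr11:40755422-40755511, minus strand): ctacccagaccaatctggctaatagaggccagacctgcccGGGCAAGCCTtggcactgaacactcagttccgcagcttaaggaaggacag
Bax (chr7:45467050-45467139, minus strand): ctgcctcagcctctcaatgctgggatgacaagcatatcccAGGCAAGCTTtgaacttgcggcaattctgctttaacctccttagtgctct
Ckap2 (chr8:22185973-22186062, minus strand): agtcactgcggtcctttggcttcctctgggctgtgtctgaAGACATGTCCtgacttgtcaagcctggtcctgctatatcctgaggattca
Trp53 (chr11:69580244-69580333, plus strand): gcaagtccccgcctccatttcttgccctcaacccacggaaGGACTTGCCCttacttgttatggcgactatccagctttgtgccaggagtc
In Cdkn1a the decamers begin 73 and 51 bases before the start. In the other 5 genes the decamer begins 75 (Trp53) to 203 (Ckap2) bases before it. Of these 6 genes, Cdkn1a, Mdm2, Ccng1, Bax and Ckap2 were lower in control 2 than in the other controls of both tissues, and Trp53 was not. Of the other members with a decamer, Aen, Polk, Ei24 and Gtse1 were also lowest there, and Sesn1 was not in BAT. Bbc3, Pidd1, Sesn2, Eda2r, Fas, Ercc5 and Apaf1, whose windows held no decamer, were likewise lowest in both tissues. Phlda3, Btg2, Plk2, Plk3 and Dram1, also without a decamer, were not. A link between decamers and control 2 was not tested.

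Control 2 differed from controls 1 and 3 in most of the 31 genes, and in the same direction in both tissues. Libraries of the same number were taken to pair the tissues, so both control 2 libraries may come from the same mouse. Agreement between the tissues is then not an independent repeat. In WAT, control 2 was the lowest of the 3 controls for 24 of 31 genes, against 33.4% of the 15915 genes tested there. In BAT it was the lowest for 20 of the 30 genes that passed the filter on low counts, against 35.9% of 14265. It was the highest control for 5 genes in WAT (Pmaip1, Ddb2, Xpc, Dram1 and Trp53; background 37.4%) and for 3 of 30 in BAT (Sesn1, Phlda3 and Btg2; background 37.3%). Pmaip1 did not pass in BAT and was highest in control 2 there too. At least 2-fold below the lower of controls 1 and 3 were 6 genes in WAT (background 1.55%), namely Cdkn1a, Aen, Eda2r, Trp53inp1, Polk and Gtse1. In BAT there were 10 such genes (background 1.75%), the same 6 with Sesn2, Bax, Apaf1 and Ckap2. The median log2 ratio of control 2 to the mean of the other controls was −0.79 over the 31 genes in WAT and −0.35 over 30 in BAT, where the median of all genes was 0.00 in each tissue. In WAT, control 2 stood with AKO in its lymphocyte markers but not in these genes: it lay below every AKO library for 25 of the 31 (background 30.9%). In BAT it lay below every AKO library for 7 of 30 genes (background 24.9%). Whether RNA of other cells contributed to these levels was not tested, and in whole tissue fewer cells of a type and less RNA per cell cannot be told apart. The plot of control 2 against the other controls shows each gene in both tissues.

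**Figure D1:**
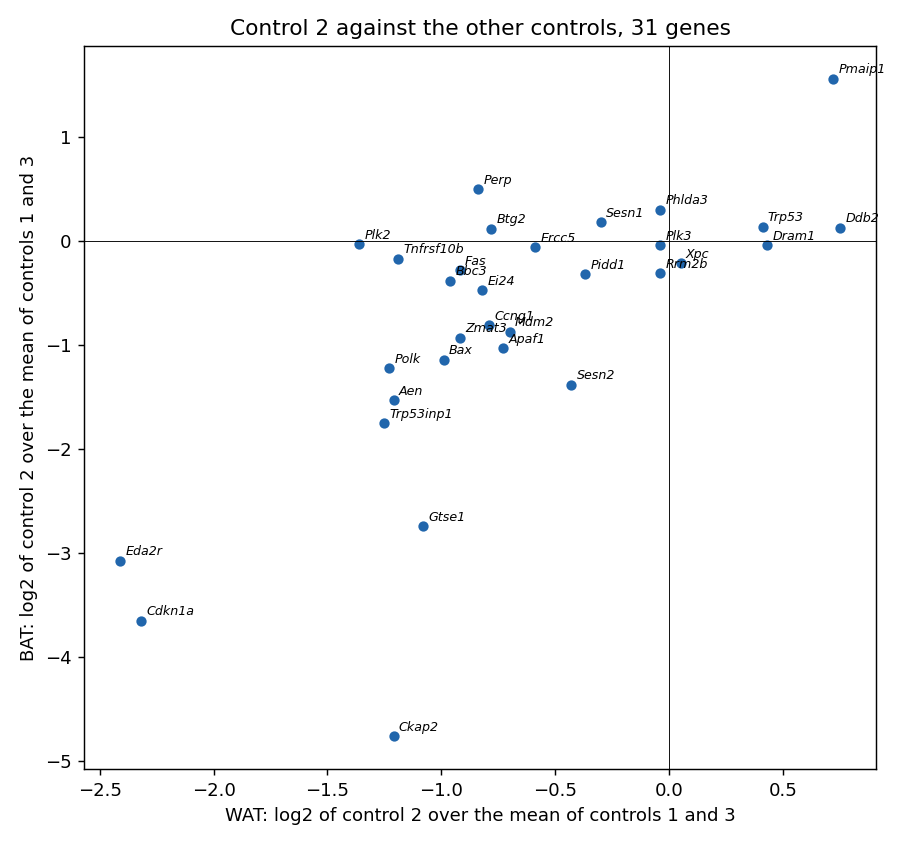
Log2 ratio of control 2 to the mean of controls 1 and 3 in WAT (x axis) and in BAT (y axis), 1 point per gene, n = 1 library against 2. Cdkn1a (−2.32 in WAT, −3.65 in BAT) and Eda2r (−2.41 and −3.07) lie at the lower left; the BAT value of Ckap2 rests on 2 counts, and Pmaip1 at the upper right rests on at most 17 counts per BAT library.

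In control 2 the level of p53's own transcript was not low. Trp53 measured 33.0, 49.6 and 41.7 CPM in WAT controls 1, 2 and 3 and 57.4, 49.5 and 73.0 CPM in WAT AKO 1, 2 and 3. In BAT the controls measured 31.9, 41.7 and 43.8 CPM and the AKO libraries 32.7, 31 and 26.7 CPM. Control 2 was thus the highest control in WAT and lay between the others in BAT. Mdm2, the ubiquitin ligase that degrades p53, measured 66.1, 40.7 and 66.5 CPM in WAT controls and 95.4, 89.7 and 84.9 CPM in WAT AKO. Its BAT levels were 66.8, 37.0 and 68.3 CPM in controls and 44.2, 43.8 and 42.1 CPM in AKO. In BAT the AKO libraries therefore lay near control 2, and in WAT they lay above all 3 controls. Ccng1, the cyclin G1 gene that recruits a phosphatase to Mdm2, ran 249, 125 and 182 CPM in WAT controls against 229, 323 and 195 CPM in WAT AKO. Its BAT values of 193, 97.5 and 148 CPM in controls and 122, 176 and 125 CPM in AKO overlapped, with control 2 lowest of the 6.

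Among genes that act on the cell cycle, Cdkn1a, which encodes the CDK inhibitor p21, was the gene that separated the libraries of BAT furthest in CPM. It measured 481, 86.3 and 380 CPM in WAT controls 1, 2 and 3 and 335, 369 and 250 CPM in WAT AKO. The BAT controls measured 565, 42.2 and 494 CPM and the BAT AKO libraries 45.1, 40 and 35.8 CPM. Control 2 was 4.99-fold below the mean of the other controls in WAT and 12.5-fold below it in BAT, where it fell among the AKO libraries. Gtse1, a microtubule-associated gene whose product moves p53 out of the nucleus in G2, measured 21.3, 9.71 and 19.8 CPM in WAT controls and 36.4, 30.8 and 41.9 CPM in WAT AKO. In BAT it gave 12.7, 1.76 and 10.8 CPM in controls and 1.10, 0.883 and 1.23 CPM in AKO. The AKO libraries lay above every control in WAT and below every control in BAT. The separation from BAT control 2 rests on few counts, 25 against 16, 12 and 17 in AKO.

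Ckap2, a spindle protein gene, was scarce: it measured 5.22, 2.82 and 7.83 CPM in WAT controls and 6.28, 5.73 and 8.26 CPM in WAT AKO. In BAT it gave 40, 2 and 64 counts in controls and 6, 10 and 17 counts in AKO. Btg2, an antiproliferative gene, showed no low value of control 2 in BAT, with 58.0, 65.3 and 62.3 CPM in controls against 36.4, 35.5 and 23.0 CPM in AKO. In WAT it measured 64.2, 53.6 and 120 CPM in controls and 107, 93.5 and 118 CPM in AKO. Plk2, a polo-like kinase gene, was also close among BAT controls at 41.0, 45.4 and 51.9 CPM, above the AKO values of 24.1, 27.0 and 26.7 CPM. Its WAT controls were 43.5, 22.3 and 70.8 CPM and its WAT AKO libraries 39.0, 30.2 and 41.3 CPM. Plk3, another kinase of this family, stayed between 6.93 and 11.7 CPM in WAT and between 4.18 and 13.5 CPM in BAT, with groups that overlapped in each tissue.

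**Figure D2:**
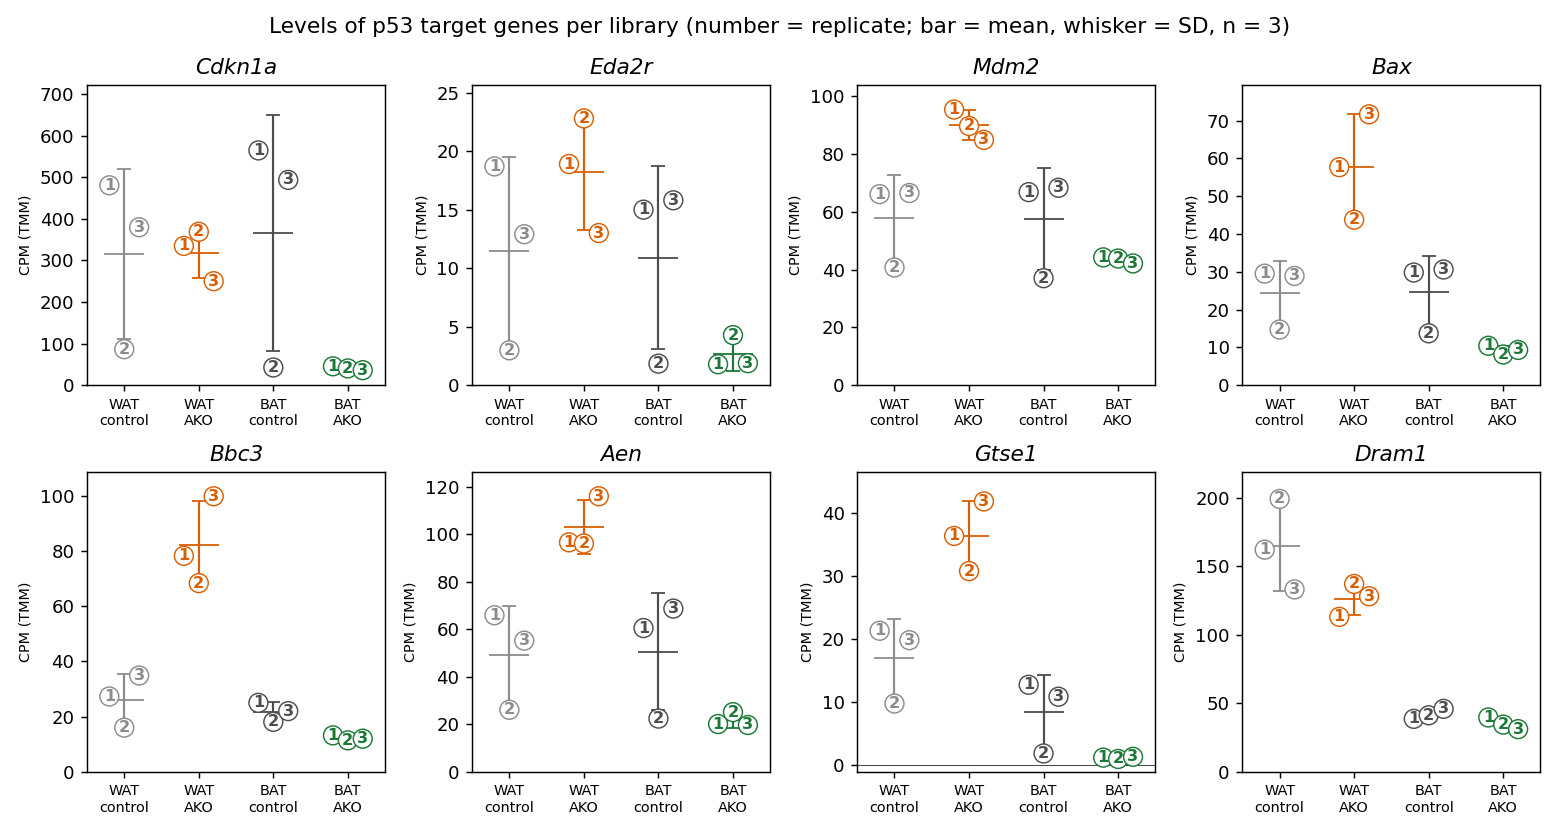
Levels in CPM of 8 genes in each library (circled number, the replicate), with the mean (bar) and SD (whisker) of each group, n = 3. For Cdkn1a, Eda2r, Mdm2, Bax, Aen and Gtse1 the BAT control 2 library lies near the 3 BAT AKO libraries, while Dram1 separates WAT from BAT in every library.

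Of the genes of the mitochondrial route to apoptosis, Bax, whose product forms pores in the outer mitochondrial membrane, measured 29.5, 14.7 and 28.9 CPM in WAT controls and 57.7, 43.8 and 71.7 CPM in WAT AKO. In BAT it measured 29.8, 13.7 and 30.6 CPM in controls and 10.4, 8.09 and 9.30 CPM in AKO, so that the groups did not overlap in either tissue. Bbc3, which encodes the BH3-only protein PUMA, ran 27.3, 16.0 and 34.9 CPM in WAT controls and 78.3, 68.4 and 99.9 CPM in WAT AKO. Its BAT values were 25.0, 18.1 and 22 CPM in controls and 13.2, 11.4 and 12 CPM in AKO. The WAT AKO libraries of both genes stood above every other library of the study.

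Pmaip1, the gene of the BH3-only protein NOXA, was present at 12.6, 11.6 and 13.4 CPM in WAT AKO and at 1.91, 2.54 and 1.16 CPM in WAT controls. In BAT it gave 6, 17 and 5 counts in controls and 6, 5 and 2 counts in AKO. Unlike most of the other genes it was highest in control 2 of each tissue's controls. Apaf1, the scaffold of the apoptosome, measured 19.5, 12.4 and 21.5 CPM in WAT controls and 39.4, 37.5 and 43.7 CPM in WAT AKO. The BAT libraries gave 11.8, 5.71 and 11.6 CPM in controls and 5.56, 5.52 and 6.06 CPM in AKO, with control 2 inside the AKO range. Aen, an exonuclease gene, measured 65.9, 26.1 and 55.2 CPM in WAT controls, 96.6, 96.1 and 116 CPM in WAT AKO, 60.5, 22.4 and 68.7 CPM in BAT controls and 20.1, 25.1 and 19.7 CPM in BAT AKO. Trp53inp1, a nuclear protein gene that promotes phosphorylation of p53, gave 59.7, 27.4 and 70.2 CPM in WAT controls and 140, 144 and 125 CPM in WAT AKO. Its BAT values were 62.4, 17.4 and 54.4 CPM in controls and 20, 12 and 31.5 CPM in AKO. For both genes the WAT AKO libraries exceeded every control, and BAT control 2 lay within the AKO range.

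Zmat3, an RNA-binding zinc finger gene, differed little between the genotypes in WAT, with 52.9, 28.8 and 55.7 CPM in controls and 56.8, 50.2 and 60 CPM in AKO. In BAT it measured 23.6, 13.6 and 28.2 CPM in controls and 12.1, 12.6 and 11.8 CPM in AKO, below every control. Pidd1, which encodes the platform for caspase-2, measured 8.23, 6.51 and 8.59 CPM in WAT controls and 16.4, 14.3 and 21.8 CPM in WAT AKO. In BAT it gave 6.04, 5.57 and 7.88 CPM in controls and 4.46, 4.41 and 4.69 CPM in AKO. These 2 genes thus had BAT AKO libraries below all BAT controls, control 2 included. Ei24, an endoplasmic reticulum protein gene, ranged from 67.7 CPM (control 2) to 133 CPM in WAT and from 93.6 to 144 CPM in BAT. Phlda3, which encodes a competitor of Akt at the membrane, went against the others, at 483, 422 and 387 CPM in WAT controls and 317, 429 and 391 CPM in WAT AKO. Its BAT levels were 454, 555 and 445 CPM in controls and 518, 510 and 518 CPM in AKO, with control 2 the highest. Perp, a desmosome protein gene, was near the limit of detection, with 2 to 22 counts per library.

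Of the death receptor genes, Eda2r, the ectodysplasin A2 receptor, resembled Cdkn1a. It measured 18.7, 2.97 and 12.9 CPM in WAT controls and 18.9, 22.8 and 13 CPM in WAT AKO. In BAT it measured 15, 1.83 and 15.8 CPM in controls and 1.78, 4.27 and 1.87 CPM in AKO. BAT control 2 lay inside the AKO range, and controls 1 and 3 lay above it. Tnfrsf10b, the TRAIL receptor, ran 17.7, 9.52 and 25.9 CPM in WAT controls and 22.2, 23.0 and 24.4 CPM in WAT AKO. Its BAT controls were alike at 17, 16.9 and 20.8 CPM, above the AKO values of 12.8, 9.86 and 9.44 CPM. Fas ranged from 26.7 CPM (control 2) to 53.5 CPM in WAT and from 32.0 to 41.0 CPM in BAT, where the groups overlapped.

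Of the genes of DNA repair and nucleotide supply, Polk, a translesion DNA polymerase gene, measured 16.3, 6.22 and 12.9 CPM in WAT controls and 23.2, 27.7 and 23.6 CPM in WAT AKO. In BAT it measured 8.20, 3.74 and 9.19 CPM in controls and 5.97, 6.62 and 5.55 CPM in AKO, so that control 2 was the lowest of the 6. Xpc and Ercc5, both of nucleotide excision repair, stayed within 30.4 to 40.2 CPM and 19.2 to 39.5 CPM in WAT and within 23.8 to 31.8 CPM and 23.3 to 28.2 CPM in BAT. For both, every WAT AKO library lay above every WAT control. Ddb2, the damage sensor of the same pathway, gave 5.17, 7.99 and 4.35 CPM in WAT controls and 10.2, 7.13 and 11.3 CPM in WAT AKO, and 6.42 to 8.58 CPM in BAT. Rrm2b, a ribonucleotide reductase subunit gene, stayed between 18.0 and 24.9 CPM in WAT and between 13.1 and 21.6 CPM in BAT. Ddb2 shares 652 exon bases with Acp2 and Rrm2b 734 with Gm49085 on the other strand, and the sources used here do not give the strand setting of the counts.

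Of the metabolic and autophagy genes, Sesn1, a sestrin that restrains mTORC1, measured 49.8, 43.2 and 56.5 CPM in WAT controls and 67.4, 63.0 and 54.9 CPM in WAT AKO. Its BAT levels were 19.2, 20.1 and 16.2 CPM in controls and 21, 22.2 and 22.2 CPM in AKO, all below the lowest WAT library. Sesn2, the related stress-induced sestrin, ran 67.8, 49.2 and 64.4 CPM in WAT controls and 70.1, 62.4 and 70.9 CPM in WAT AKO. In BAT it gave 63.8, 23.3 and 57.9 CPM in controls and 41.3, 42.2 and 24.4 CPM in AKO, with control 2 the lowest of the 6. Dram1, a lysosomal regulator of autophagy, measured 162, 199 and 133 CPM in WAT controls and 113, 137 and 128 CPM in WAT AKO. In BAT it stayed between 31.1 and 45.9 CPM. WAT control 2 had the highest Dram1 level of all 12 libraries.

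**Figure D3:**
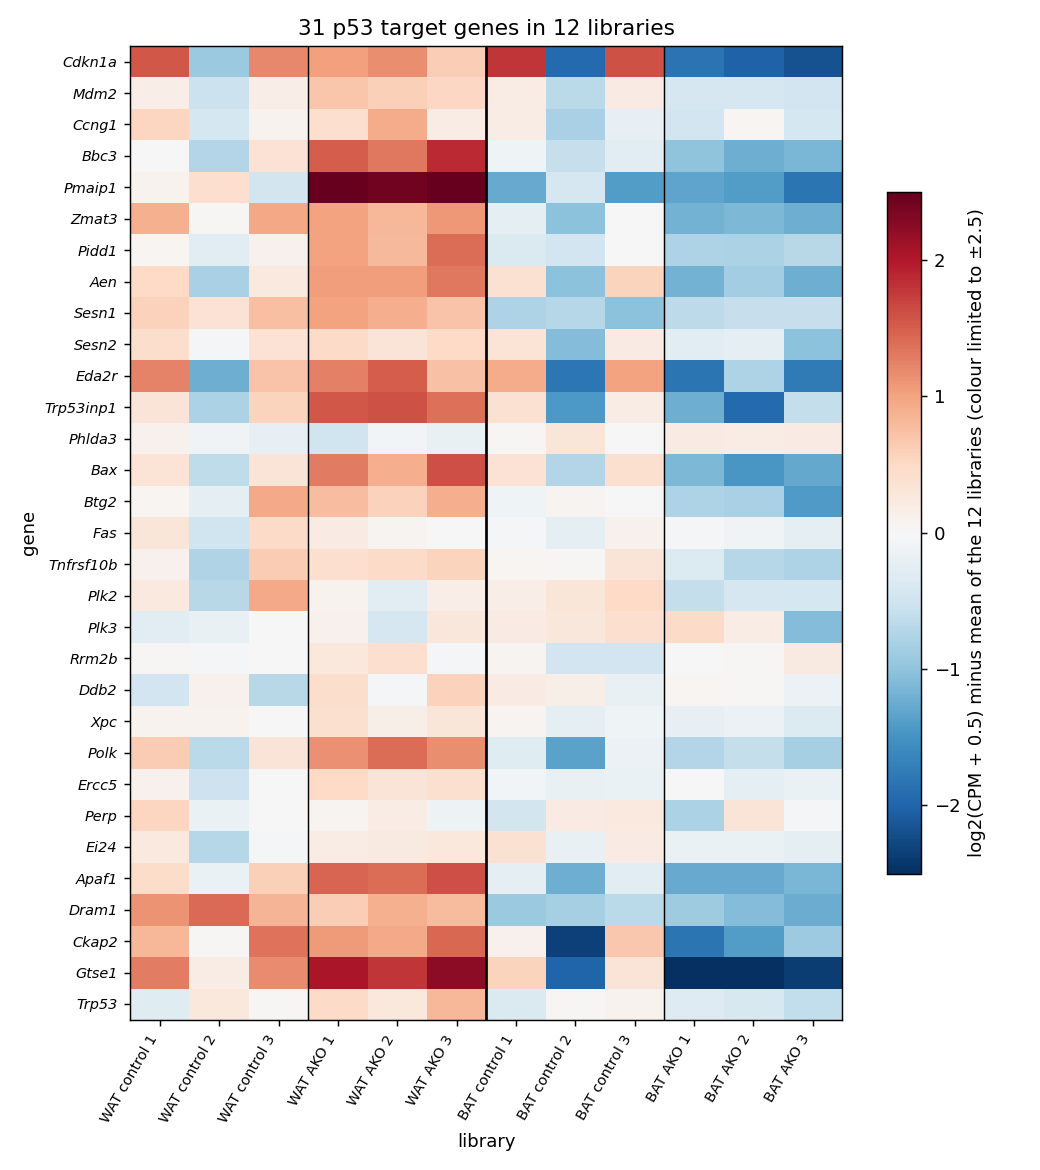
Level of each of the 31 genes (rows) in each of the 12 libraries (columns), as log2(CPM + 0.5) minus the gene's mean over the libraries; the pseudocount serves the colour scale alone. Cdkn1a, Eda2r, Trp53inp1, Bax, Aen and Gtse1 are low in BAT control 2 and in the 3 BAT AKO libraries; Phlda3, Plk3 and Rrm2b do not show it.

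Per length, Phlda3 was the most abundant of the 31 in every group, at 308 ± 26.3 FPKM in WAT controls and 282 ± 5.14 FPKM in BAT AKO (SD, n = 3 each). Cdkn1a came next in WAT controls (155 ± 96.0 FPKM), WAT AKO (172 ± 28.0 FPKM) and BAT controls (142 ± 110 FPKM), with an SD in the control groups near its distance from the genes below it. In BAT AKO it stood at 15.5 ± 1.93 FPKM, below Ccng1 (34.2 ± 7.06), Ei24 (17 ± 0.602) and Fas (16.5 ± 1.28); its distance from Ei24 and Fas was within its SD. The lowest mean levels were those of Perp in the WAT groups (0.410 ± 0.162 FPKM in controls, 0.391 ± 0.0602 in AKO) and of Pmaip1 in the BAT groups (0.220 ± 0.153 and 0.0993 ± 0.0467 FPKM).

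The comparison of AKO with control in WAT asked how the pathway differs in white fat after loss of Mcu. Of the 31 genes, 25 had a positive log2 fold change, against 50.5% of all genes, and the median was 0.40, where that of all genes was 0.00. Without WAT control 2, 23 were positive and the median was smaller, 0.17, where that of all genes was −0.01. With all 6 libraries, Pmaip1 stood first at 2.72 (SE 0.289, 95% interval 2.03 to 3.41). Bbc3 followed at 1.63 (SE 0.298, interval 0.92 to 2.35), Trp53inp1 at 1.36 (SE 0.334) and Bax at 1.22 (SE 0.305). Apaf1 and Pidd1 each stood at 1.15, Gtse1 at 1.08, and Aen and Polk each at 1.05. Pmaip1, Bbc3, Bax and Apaf1, all of the mitochondrial route to apoptosis, were thus among the first 5. Cdkn1a had a log2 fold change of −0.01 (SE 0.570, interval −1.38 to 1.36). The other 5 negative values were those of Dram1 (−0.41), Plk2 (−0.33), Perp (−0.22), Phlda3 (−0.20) and Fas (−0.09).

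Every AKO library lay above every WAT control for 12 of the 31 genes (background 15.9%): Mdm2, Bbc3, Pmaip1, Pidd1, Aen, Trp53inp1, Bax, Xpc, Polk, Ercc5, Apaf1 and Gtse1. For none of the 31 did every AKO library lie below every control (background 14.5%). WAT control 2 was the lowest of the 6 WAT libraries for 23 of the 31, so AKO could not lie below every control for those genes. Set against controls 1 and 3, the WAT AKO libraries lay higher for 14 of the 31 (background 27.1%). They lay lower for 3, namely Cdkn1a, Fas and Plk2 (background 22.9%). The quasi-likelihood test of edgeR called 0 of the 31 and 0.0189% of all genes. At an unadjusted p under 0.05 it held 14 of the 31 and 22.6% of all genes. DESeq2 called 10 of the 31 and 1679 of all 15915 genes. By limma voom it was 0 of the 31 and 1 of all genes. Without WAT control 2, edgeR called 9 of the 31 higher (6.51% of all genes) and none lower: Aen, Polk, Gtse1, Apaf1, Bax, Pidd1, Trp53inp1, Bbc3 and Pmaip1. With or without it nothing is read from these calls, since the choice of genes used this contrast. T and NK lymphocyte markers were also higher in WAT AKO than in WAT controls 1 and 3, and their part in these levels was not tested.

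**Figure D4:**
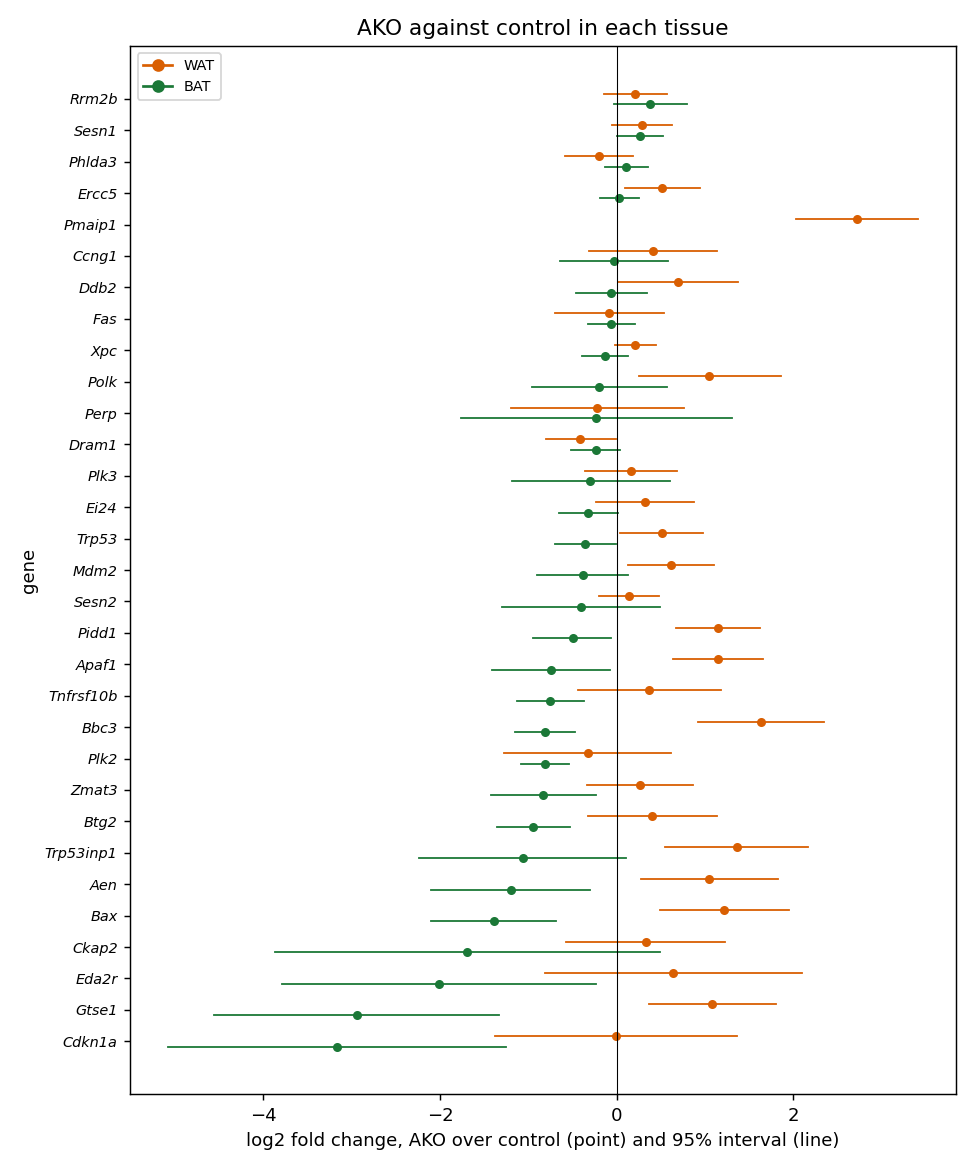
Log2 fold change of AKO over control (point) with its 95% interval (line) in WAT and in BAT, n = 3 against 3 libraries in each tissue, genes ordered by the BAT value. Bbc3, Bax, Aen, Gtse1, Apaf1 and Pidd1 lie to the right of 0 in WAT and to the left in BAT; Pmaip1 has no BAT value because it did not pass the filter there.

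The same comparison in BAT gave mostly negative values. Of the 30 genes that passed the filter, 26 had a negative log2 fold change, against 48.4% of all genes, with a median of −0.39 where that of all genes was 0.01. Without BAT control 2, 26 were negative and the median was −0.61, where that of all genes was 0.01. With all 6 libraries, Cdkn1a stood at −3.17 (SE 0.815, 95% interval −5.08 to −1.25), an 8.98-fold lower level in AKO. Gtse1 stood at −2.94 (SE 0.687, interval −4.56 to −1.33), Eda2r at −2.01 (SE 0.758), Ckap2 at −1.69 (SE 0.929) and Bax at −1.39 (SE 0.301). The wide intervals of Cdkn1a, Gtse1, Eda2r and Ckap2 go with the low value of BAT control 2. Genes whose BAT controls were close to each other had narrower ones: Plk2 stood at −0.81 (SE 0.116, interval −1.08 to −0.54) and Btg2 at −0.95 (SE 0.178, interval −1.36 to −0.53). The 4 positive values were those of Rrm2b (0.38), Sesn1 (0.26), Phlda3 (0.11) and Ercc5 (0.03).

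Every BAT AKO library lay below every BAT control for 8 of the 30 genes (background 11.5%): Bbc3, Zmat3, Pidd1, Bax, Btg2, Tnfrsf10b, Plk2 and Gtse1. Above every control they lay for Sesn1 alone (background 8.19%). Bbc3, Pidd1, Bax and Gtse1 joined this with AKO libraries above every control in WAT, a double pattern of 4 of the 30 genes and of 1.79% of the 13851 tested in both tissues. Set against controls 1 and 3, the AKO libraries lay lower for 20 of the 30 (background 20.3%). The test of edgeR called 0 of the 30 and 0.0771% of all genes. At an unadjusted p under 0.05 it held 13 of the 30 and 13.6% of all genes. DESeq2 called 7 of the 30 and 280 of all 14265 genes. By limma voom it was 0 of the 30 and 9 of all genes. Without BAT control 2, edgeR called 7 lower (0.418% of all genes), namely Cdkn1a, Gtse1, Bax, Aen, Zmat3, Bbc3 and Mdm2. Lymphocyte markers in BAT stayed at or under 0.00748% in all 6 libraries. Muscle markers reached 1.82% in BAT AKO 2 and were lower in AKO 1 and 3, and their part in these levels was not tested. Nothing is read from the calls, as in WAT.

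Between brown and white fat of control mice the test called 4 of these genes. Dram1 was lower in BAT, at 41.9 ± 3.70 CPM against 165 ± 33.1 CPM (log2 fold change −1.98, SE 0.171, edgeR adjusted p = 0.000184). Sesn1 was lower at 18.5 ± 2.05 against 49.8 ± 6.64 CPM (−1.44, SE 0.137, adjusted p = 0.000286), and Zmat3 at 21.8 ± 7.47 against 45.8 ± 14.8 CPM (−1.08, SE 0.332, adjusted p = 0.0323). Plk3 was higher in BAT, at 11.9 ± 0.955 against 8.5 ± 0.824 CPM (0.47, SE 0.150, adjusted p = 0.0363). For Dram1, Sesn1, Zmat3 and Plk3 the BAT and WAT control libraries did not overlap. The 3 lower and 1 higher calls among 31 genes compare with 25.7% lower and 24.4% higher among the 15031 genes tested. Control 2, on which the genes are treated as selected, is in both groups and adds to their spread. Nothing is therefore read from the low share called. The median log2 fold change was −0.22, where that of all genes was −0.04.

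Cdkn1a shows how little precision the control comparison had: its log2 fold change was 0.21 with an interval from −1.99 to 2.42. The same held for Eda2r (−0.09, interval −2.11 to 1.93) and Aen (0.04, interval −1.08 to 1.15). Since libraries with the same number in WAT and BAT varied together within a genotype, the number was also used as a block. The block left Plk3 as the 1 higher call and gave 8 lower calls (background 28.3%), adding Pmaip1, Gtse1, Apaf1, Polk and Ccng1. Without both control 2 libraries, 7 genes were lower (background 20.6%) and 0 higher, and Plk3 missed the threshold. Pmaip1, among both the 8 and the 7, passed the filter through WAT. It reached 10 counts in all 3 WAT controls but not in all 3 BAT controls. The calls of Dram1 and Sesn1 were made under all of these fits. Zmat3 missed the threshold when WAT control 1, WAT control 3 or either of BAT controls 1 and 2 was left out. Plk3 missed it without a filter and with all 12 libraries in 1 fit. It also did so when WAT control 1 or BAT control 1, 2 or 3 was left out.

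In AKO mice, whose libraries do not include control 2, the test called 25 of the 31 genes lower in BAT than in WAT (30.5% of the 15671 genes tested) and 1 higher (28.8%). The same AKO libraries entered the comparisons of AKO with control, on which the genes are treated as selected. These tests are therefore not independent of the choice, and their p-values lend it no support. Pmaip1, Ckap2 and Perp reached 10 counts in all 3 libraries of WAT AKO but not of BAT AKO, so they passed the filter through WAT; of the other 28 genes 23 were called lower and 1 higher. Over the 31 the median log2 fold change was −1.43, and over all genes it was −0.02. Gtse1 measured 1.07 ± 0.173 CPM in BAT against 36.4 ± 5.54 CPM in WAT (−5.01, SE 0.188, adjusted p = 4.57e-06). Cdkn1a measured 40.3 ± 4.66 against 318 ± 61.3 CPM, a 7.53-fold lower level (−2.91, SE 0.187, adjusted p = 1.66e-05). Apaf1 was 6.69-fold lower (−2.74, adjusted p = 5.55e-06), Bbc3 6.39-fold (−2.68), Bax 5.91-fold (−2.56) and Aen 4.53-fold (−2.18). Pmaip1 stood at −5.24.

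Smaller differences in the same direction passed for Trp53 itself (−0.92, SE 0.146, adjusted p = 0.00123), Mdm2 (−0.98), Tnfrsf10b (−1.05), Sesn2 (−0.84), Ccng1 (−0.76), Ercc5 (−0.48), Xpc (−0.46), Plk2 (−0.43) and Ei24 (−0.35). Sesn1 (−1.43) and Dram1 (−1.78) had values close to those in controls. Also called lower were Ckap2 (−3.02), Eda2r (−2.72), Trp53inp1 (−2.62), Zmat3 (−2.12), Polk (−1.97), Pidd1 (−1.88) and Btg2 (−1.67). Phlda3 was the 1 gene higher in BAT, at 516 ± 4.43 against 379 ± 57.0 CPM (0.51, SE 0.136, adjusted p = 0.0134). Ddb2 (−0.31, interval −0.77 to 0.14), Perp (−0.19, −1.49 to 1.11), Fas (−0.15, −0.39 to 0.09), Rrm2b (−0.08, −0.45 to 0.29) and Plk3 (0.06, −0.88 to 1.00) did not pass.

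Every BAT AKO library lay below every WAT AKO library for 26 of the 31 genes, and 24 of the 28 that did not pass the filter through WAT alone (background 37.4%), Fas included, against 4 of 31 among the controls (background 30.8%). The block by replicate number, DESeq2 and limma voom changed neither of the 2 counts of calls. With all 12 libraries in 1 fit 23 were lower (32.3% of genes), as Plk2 and Ei24 missed the threshold. The WAT AKO libraries held more lymphocyte, macrophage and progenitor marker RNA than BAT AKO: macrophage markers took 0.115% to 0.153% against 0.021% to 0.0258%, and adipose progenitor markers 1.25% to 1.36% against 0.163% to 0.203%. In WAT controls macrophage markers took 0.129% to 0.177%, and T and NK lymphocyte markers were lower in controls 1 and 3 than in AKO, as given above. The part of cell makeup in the tissue differences was not tested.

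**Figure D5:**
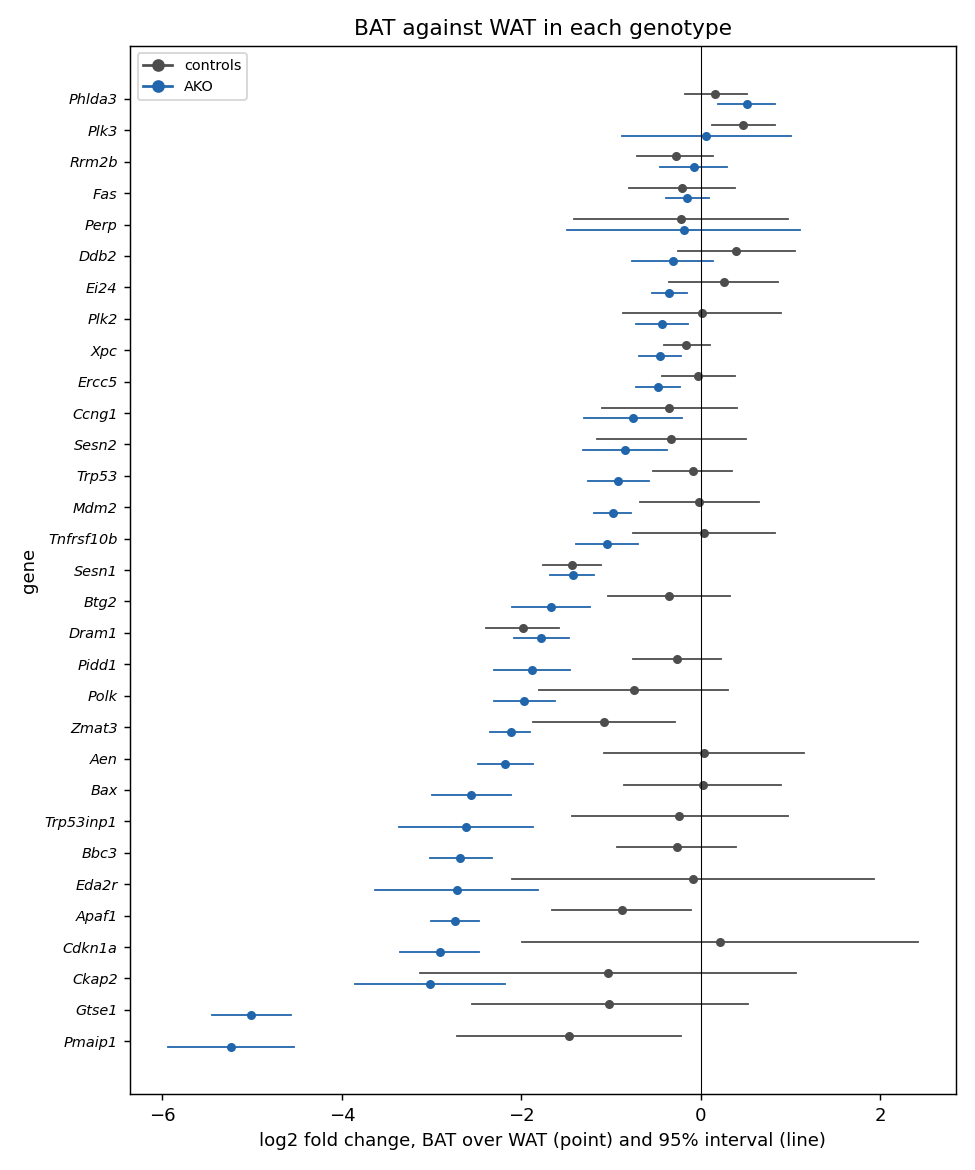
Log2 fold change of BAT over WAT (point) with its 95% interval (line) in controls and in AKO, n = 3 against 3 libraries in each genotype, genes ordered by the AKO value. Controls have wide intervals around 0 for Cdkn1a, Eda2r and Ckap2, whereas 25 genes lie to the left of 0 in AKO past the test's threshold.

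The difference of the AKO effects, BAT minus WAT, is the same quantity as the difference of the tissue effects, AKO minus control. It was negative for 28 of the 31 genes (52.1% of all genes), with a median of −1.04 where that of all genes was −0.02. The values were −4.07 for Gtse1 (SE 0.803), −3.85 for Pmaip1 (SE 0.665), −3.20 for Cdkn1a (SE 1.09), −2.70 for Eda2r (SE 1.07), −2.66 for Bax (SE 0.473) and −2.49 for Bbc3 (SE 0.353). The 3 positive values were those of Phlda3 (0.27), Rrm2b (0.13) and Dram1 (0.13). In the fit of all 12 libraries 3 of the 31 genes, Pmaip1, Bbc3 and Pidd1, passed the threshold, all lower, as did 0.122% of all genes in that direction. Without both control 2 libraries 13 passed (3.24% of all genes), and 13 with the replicate number as a block within each genotype (0.946%). The 13 were the same in both fits: Gtse1, Pmaip1, Cdkn1a, Eda2r, Bax, Trp53inp1, Bbc3, Aen, Apaf1, Pidd1, Polk, Zmat3 and Mdm2. Pmaip1, included in each of these counts, did not pass the filter in BAT and entered through WAT, where it was high in AKO. It had 2 to 17 counts per BAT library. With each of the 12 libraries left out in turn, Bbc3 missed the threshold in 7 fits and Pidd1 and Pmaip1 in 9 each, and limma voom called Bbc3 alone. These counts describe the chosen genes and lend them no independent support.

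Of 26 regulators and partners of p53 tested in AKO, 9 were lower in BAT and 2 higher, with a median of −0.24; the share lower is near that of all genes (30.5%), and the share higher is below it (28.8%). Mdm4, the partner of Mdm2 that blocks p53's activation domain, was lower (log2 fold change −1.11, SE 0.12, adjusted p = 0.000179). So were Ppm1d (−0.92), the phosphatase that ends p53 signalling and is itself a target, Atm (−1.33), the kinase that signals DNA breaks, and Daxx (−1.13). Cop1 (0.40), a ubiquitin ligase for p53, and Ppp1r13l (0.82), an inhibitor of p53, were higher. In controls 7 of 25 were lower and 2 higher (25.7% and 24.4% of all genes), with a median of −0.02. Atm (−1.24) and Daxx (−1.36) were lower in control BAT as well, as were Hipk2 (−1.98), a p53 kinase, and Trp63 (−2.86), the p63 gene.

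A second list held 50 other known p53 targets. In AKO, 27 of 49 were lower in BAT and 8 higher (30.5% and 28.8% of all genes), with a median of −0.75. In controls 13 of 49 were lower, near the share of all genes (25.7%), and 9 higher (24.4%), with a median of −0.23. Dcxr (−2.41), Foxo3 (−1.36), Sesn3 (−1.66) and Casp1 (−2.64) were lower in AKO BAT, and Sod2 (2.55), Abhd4 (0.98), Tsc2 (1.10) and Tob1 (1.18) were higher. Sesn3 (−1.88), Casp1 (−2.64) and Sod2 (1.94) differed in the same direction in controls. Control 2 was the lowest control for 25 of the 50 in WAT and for 21 of 46 in BAT (33.4% and 35.9% of all genes), with median log2 ratios of −0.13 and −0.07. Of this list, Steap3, a ferrireductase gene, was the 1 gene edgeR called in the difference of AKO effects, and its value was positive (1.29, SE 0.162). Among all genes 0.153% were called in that direction, and some fits with 1 library left out called only 2 of all genes. The list was chosen with earlier results of these data known, so this call is a description. For AKO against control its members had medians of 0.25 in WAT and −0.09 in BAT, and edgeR called 0 of 50 and 0 of 46.

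A further list held 38 cell cycle genes that p21 represses through the DREAM complex. Control 2, where Cdkn1a was low, was the highest control for 16 of the 38 in WAT and for 12 of 36 in BAT (37.4% and 37.3% of all genes), with median log2 ratios of 0.20 and −0.03. It was the lowest control for 1 of the 38 in WAT and for 15 of 36 in BAT (33.4% and 35.9% of all genes), so the tissues differed. In BAT against WAT 23 of 37 were lower in controls (25.7% of all genes) and 28 of 37 in AKO (30.5%), and edgeR called 0 higher in either (24.4% and 28.8%). Mki67, a proliferation marker, measured 19.3 ± 7.12 CPM in WAT controls and 3.45 ± 0.892 CPM in BAT controls (−2.49, SE 0.351, adjusted p = 0.0014). In AKO it measured 18.2 ± 4.14 CPM in WAT and 5.95 ± 1.88 CPM in BAT. For AKO against control the medians of the list were −0.06 in WAT and 0.07 in BAT.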

How the data were processed

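Polyadenylated RNA of 12 libraries was analysed from the deposited counts, whole reads per Ensembl gene made by the authors. Build mm10 and the programs HTSeq 0.6.0, HISAT2 2.1.0 and Bowtie2 2.2.3 are named, per the submitters' processing notes; the sources used here do not give their roles or the strand setting. The FPKM deposited by the authors equal counts over a constant per gene and the library total (largest relative deviation 9.12e-09) and gave levels between genes. Symbols came from GENCODE M21, for 52403 of 52550 IDs. Symbols were matched exactly.

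Genes passing filterByExpr (minimum count 10, minimum total 15) entered the quasi-likelihood test of edgeR 4.0.16 (R 4.3.3) with TMM scaling, with Benjamini-Hochberg adjustment over all genes at 0.05. Each comparison used its own 6 libraries and the difference of effects all 12. The script was tested on simulated data. Alternatives were RLE size factors, no filter, a filter of 2 CPM, DESeq2 1.42.0, limma 3.58.1 voom, the replicate number as a block, all 12 libraries in 1 fit and each library left out. Added after seeing the data were leaving out both control 2 libraries, the block within genotype, and counts of genes by the place of control 2 among the libraries. The 31 genes and the other lists were chosen with earlier results of these data known. All 31 are named. Of other lists, up to 4 called genes per direction and comparison with the smallest p are named, and any gene outside this was chosen after its values were seen.

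Replicates of a group differed beyond sampling noise (chi-square per degree of freedom 16.5 to 83.4). Over 16391 genes, the deviations of WAT and BAT libraries with the same number correlated at 0.517, 0.238 and 0.45 in controls and 0.567, 0.676 and 0.136 in AKO, so the numbers were taken to pair the tissues. WAT AKO 3 correlated more with BAT AKO 1 (0.431) than with BAT AKO 3, so the pairing of AKO 3 is uncertain. Fits with the number as a block in AKO carry this limit. Intervals in log2 come from the fitted standard errors at 95%. Reads of Cdkn1a, Plk3, Ei24, Rrm2b and Ddb2 may include a gene on the other strand, those of Bax share 192 exon bases with Gm45808, and those of Trp53, Rrm2b and Tnfrsf10b may be shared with pseudogenes.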

Additional observations from a re-analysis of the deposited data

Results flagged for a closer look

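In 4 of the 31 genes every AKO library lay above every control in WAT and below every control in BAT, as in 1.79% of the 13851 genes tested in both tissues. For Gtse1 the separation from BAT control 2 rests on few counts, 25 against 16, 12 and 17 in AKO. The difference of the log2 fold changes of AKO over control, BAT minus WAT, was −2.49 for Bbc3, −1.69 for Pidd1, −2.66 for Bax and −4.07 for Gtse1. In the edgeR fit of all 12 libraries this difference passed the threshold for Bbc3 and Pidd1 and missed it for Bax and Gtse1. With each library left out in turn, Bbc3 missed it in 7 of 12 fits and Pidd1 in 9, and by limma voom Pidd1 missed it. The genes were chosen with this contrast in view, so the calls are given as a description, and no independent test was made. Bbc3 encodes the BH3-only protein PUMA, Pidd1 a platform for caspase-2, Bax the mitochondrial pore protein and Gtse1 a microtubule-associated protein that moves p53 out of the nucleus.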

How the results depend on the processing

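In WAT, 3 genes passed for AKO against control, and 277 without a filter, 1679 by DESeq2, 1 by limma voom, 0 with the replicate block, 1030 with all 12 libraries and 1 to 1649 when 1 library was left out. Of the 31 genes 0 passed, and 4 without a filter, 10 by DESeq2, 5 with all 12 libraries and 0 to 9 with 1 library left out. In BAT, 11 genes passed, and 33 without a filter, 280 by DESeq2, 1 with the replicate block and 0 to 95 with 1 library left out; of the p53 genes 0 passed, and 1, 7 (DESeq2) and 0 to 7. Among the fits with 1 library left out, the largest counts came without control 2 of the tissue. Control and AKO libraries were not paired by number (correlations of −0.472 to 0.219 in WAT and −0.615 to 0.114 in BAT). Between tissues in controls 4 of the 31 passed, 9 with the replicate block, 7 without both control 2 libraries and 2 (without WAT control 1) to 6 with 1 library left out. The difference of AKO effects gave 45 genes, and 132 without a filter, 973 by DESeq2, 24 by limma voom, 791 without both control 2 libraries, 261 with the block within genotype and 2 to 923 with 1 library left out. Of the 31 it gave 3, and 7, 10, 1, 13, 13 and 0 to 9 in that order. The 6 genes at least 2-fold lower in WAT control 2 were 3 when counts were scaled to library totals, with a background of 1.12%, and 8 with RLE size factors (1.68%). In the tissue comparisons signs turned in values near 0, none past the threshold. Signs turned for AKO against control as well. Over all fits, WAT values ran from −0.48 to 0.42 for Cdkn1a, −0.68 to 0.14 for Plk2 and −0.36 to 0.12 for Fas. BAT values ran from −0.26 to 0.21 for Ccng1 and −0.51 to 0.05 for Polk. For BAT against WAT in controls, Cdkn1a was −0.14 by limma voom, −0.13 with the block and −0.23 to 0.75 with 1 library left out. Without both control 2 libraries Tnfrsf10b was −0.21, Plk2 −0.30, Trp53 0.02 and Mdm2 0.02. Without a filter Tnfrsf10b was −0.0011, Aen −0.01, Bax −0.03 and Plk2 −0.02; by limma voom Aen was −0.02 and Bax −0.01; with the block Aen was −0.01 and Bax −0.0028. In AKO, Plk3 was −0.08 by limma voom and −0.02 both with the block and with all 12 libraries. With 1 library left out, the values in controls ran from −0.57 to 0.01 for Sesn2, −0.44 to 0.23 for Perp, −0.25 to 0.41 for Tnfrsf10b, −0.26 to 0.40 for Aen, −0.23 to 0.31 for Bax, −0.20 to 0.07 for Trp53, −0.54 to 0.16 for Trp53inp1, −0.56 to 0.06 for Btg2, −0.20 to 0.23 for Mdm2, −0.53 to 0.48 for Eda2r, −0.19 to 0.12 for Ercc5 and −0.30 to 0.48 for Plk2. In AKO they ran from −0.19 to 0.05 for Rrm2b, −0.28 to 0.43 for Plk3 and −0.75 to 0.28 for Perp. Where a count or a sign changed, the cause was not tested. Total counts near those given leave genes of a few counts per library, such as Perp, and Pmaip1 in BAT, with little precision.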

Other observations

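Of 19 tested genes that glucocorticoids induce, a list that also holds Cdkn1a of the 31 p53 genes, control 2 was the lowest control for 16 in WAT and for 16 in BAT (33.4% and 35.9% of all genes), with median log2 ratios to the other controls of −0.87 and −0.85. Fkbp5, a co-chaperone of the glucocorticoid receptor and a usual marker of its activity, was chosen after its values were seen. It measured 413, 57.5 and 337 CPM in WAT controls 1, 2 and 3 and 293, 357 and 233 CPM in WAT AKO. In BAT it measured 165, 14.7 and 187 CPM in controls and 14.8, 17.3 and 15.9 CPM in AKO. BAT control 2 lay just below the AKO libraries. In AKO, 9 of the 19 genes were lower in BAT than in WAT and 4 higher (30.5% and 28.8% of all genes; median −0.95). In controls 3 were lower and 3 higher (25.7% and 24.4%; median −0.12). Glucocorticoid levels were not measured in these files.

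The 28 immediate early genes respond within minutes to stimulation or handling and include Btg2 of the p53 genes. Control 2 was their lowest control for 13 in WAT and for 5 of 27 in BAT (33.4% and 35.9% of all genes). It was the highest for 11 and 17 (37.4% and 37.3% of all genes). Set beside the same shares, the 20 genes of the integrated stress response, Sesn2 among them, had 7 of 19 lowest and 8 highest in WAT. In BAT control 2 was lowest for 8 of 18 of them and highest for 2. Of the 22 senescence and secretory genes linked to p53, Cdkn1a among them, 19 were tested. Control 2 was lowest for 8 in WAT and 7 in BAT, not far from the shares of all genes. In BAT against WAT, 9 of 18 of them were lower and 1 higher in controls (25.7% and 24.4% of all genes) and 11 of 20 lower and 1 higher in AKO (30.5% and 28.8%), among them Igfbp4 (log2 fold change −2.77 in controls) and Cdkn2b (−2.88 in controls), which encodes the CDK inhibitor p15.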
